A study of Homo sapiens with 4 samples.

Results

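The 10 integrin subunits described here are the rows of the expression table whose gene symbol is ITGA1, ITGA2, ITGA3, ITGA5, ITGA6, ITGA11, ITGAV, ITGB1, ITGB3 or ITGB5, and all 10 symbols had a row among 12033 genes. RNA was sequenced from BJ cells, human skin fibroblasts immortalized by hTERT, in which the oncogene RASG12V is switched on by 4-hydroxytamoxifen (4-OHT), and all libraries were made after 14 days of 4-OHT. There was 1 library for each of 4 conditions. The sgRNA-NT library is from cells with a non-targeting control guide, the sgRNA.69 and sgRNA.71 libraries are from cells with different CRISPR-Cas9 guides against the enhancer Enh.AP1.OIS1, and the sgRNA-FOXF1 library is from cells with a guide against FOXF1 itself, a forkhead transcription factor that the labels give as the target of this enhancer. Every condition therefore carries induced RASG12V, and cells without RAS induction were not analysed here. The labels name no clones or separate cultures, so each library is a single transduced culture of mixed edits as far as the sources tell.

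Integrins are heterodimeric receptors made of an alpha and a beta chain that bind the extracellular matrix outside the cell and the actin cytoskeleton, through adhesion plaque proteins, inside it. The alpha chain largely sets which ligand is bound, and the beta chain carries the tail that talin and kindlin attach to. In fibroblasts the collagen receptors pair ITGA1, ITGA2 or ITGA11 with ITGB1, the laminin receptors pair ITGA3 or ITGA6 with ITGB1, the main fibronectin receptor pairs ITGA5 with ITGB1, and ITGAV pairs with ITGB1, ITGB3 or ITGB5 to bind vitronectin, fibronectin and latent TGF-beta through an RGD motif. Oncogene-induced senescence is a lasting arrest of growth in which fibroblasts usually become large, flat and strongly adherent.

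Levels are RPKM, reads scaled by transcript length and by library size, which the authors quantile-normalized across the 4 libraries and raised to a floor of 1. They are scaled by length, but how the length of each gene was taken is not given, so levels of different genes compare less surely than libraries. ITGB1 has 14561 exonic bases in the annotation but 3735 nt in its canonical transcript, whereas ITGA2 has 7896 and 7843. Read counts are not in the table, so the depth behind each value is unknown and no counting interval can be given. Differences are log2 ratios of RPKM without a pseudocount, and a gene was counted as lower or higher at a 1.5-fold difference among the 7596 genes whose mean level reached 2 RPKM. There are no replicates of a condition, and every ratio to sgRNA-NT uses the same single control library, so a deviation of that library enters all 3 ratios alike. The spread between the enhancer guides is the only measure of error, with an SD of 0.206 per library on the log2 scale over all genes compared. In bulk RNA, fewer cells of a kind and less RNA per cell cannot be told apart.

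Fibroblast identity and the targeted gene were checked first. Of 13 fibroblast markers, 12 were among the genes compared, while only 2 of 9 epithelial markers (KRT8 and KRT18), 1 of 7 endothelial markers (TIE1, from 1.0 to 3.3 RPKM) and 3 of 7 leukocyte markers had a row. Of the leukocyte markers 1 was compared and 1 lay at the floor in all libraries. The summed level of both keratins was 80.5 RPKM in sgRNA-NT, 144.1 in sgRNA.69, 83.6 in sgRNA.71 and 137.7 in sgRNA-FOXF1, and its part in the integrin results was not tested. Of 6 muscle markers 4 had a row, 2 of them at the floor in all libraries. Their summed level was 137.1, 245.6, 186.6 and 184.4 RPKM in the same order, and its part was not tested either. FOXF1 had 29.6 RPKM in sgRNA-NT, 11.1 in sgRNA.69, 7.8 in sgRNA.71 and 25.0 in sgRNA-FOXF1, so its mRNA was lower with both enhancer guides and close to the control with the guide against the gene, which edits the DNA and need not lower the transcript. HRAS, whose row may include reads of the induced transgene, had 829.4, 446.4, 427.4 and 707.6 RPKM in the same order, and the part of this difference in the integrin results was not tested. The summed level of the fibroblast markers was 3671.2, 5258.0, 5465.4 and 5160.5 RPKM, but the markers went in both directions. Of the 12 compared, 3, 3 and 2 were at least 1.5-fold lower with sgRNA.69, sgRNA.71 and sgRNA-FOXF1, and 2, 3 and 5 were higher. Their median log2 ratios were 0.07, 0.115 and 0.308. The summed level of 13 mitochondrial transcripts was 127360.2, 97321.9, 83065.3 and 109385.7 RPKM. Of these, 8, 10 and 7 were at least 1.5-fold lower with the 3 guides, with median log2 ratios of -1.02, -1.54 and -0.77. Over all genes compared, 9.93%, 14.7% and 13.2% were as much lower and 8.18%, 14% and 11.6% higher. The part of either list in the integrin results was not tested.

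In the sgRNA-NT library ITGB1 was the most abundant of the subunits, at 283.1 RPKM and rank 129 of all genes. It was followed by ITGA3 with 176.9 RPKM, ITGA5 with 126.0, ITGA6 with 107.9 and ITGB5 with 90.1. ITGA2 had 49.0 RPKM, ITGA11 had 14.5 and ITGB3 had 13.4, whereas ITGAV with 3.2 and ITGA1 with 1.5 were close to the floor. The order of close neighbours, such as ITGA11 and ITGB3, cannot be tested with 1 library. In all 3 targeted libraries ITGA3, not ITGB1, had the highest level of the 10. Any order between genes rests on the length by which each was scaled, which is not given.

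**Figure D1:**
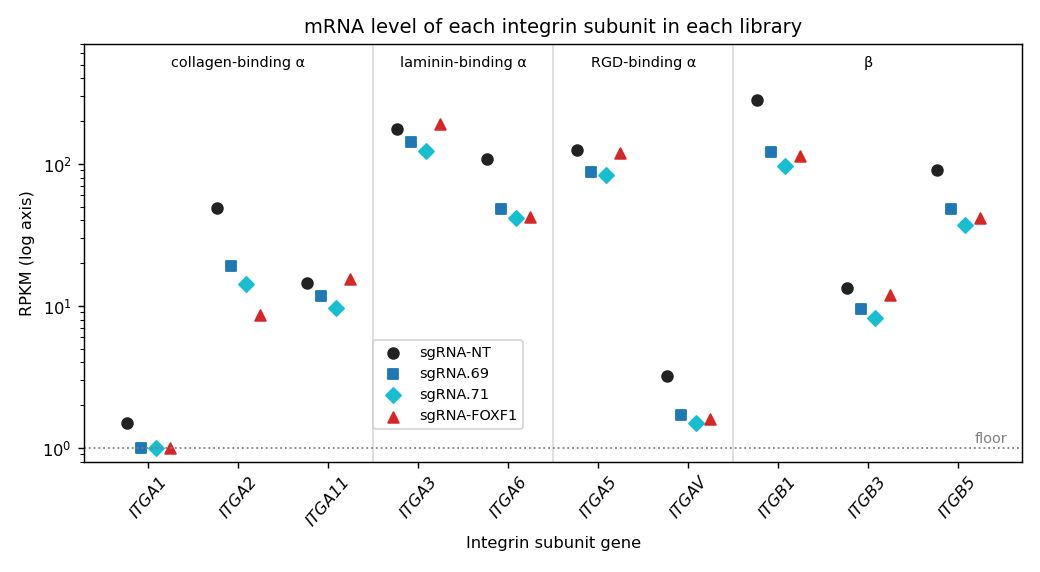
RPKM of each integrin subunit (log axis) in the 4 libraries, grouped by the ligand of the alpha chain and with the beta chains on the right. Each point is 1 library and the dotted line is the floor of 1 RPKM. ITGA2, ITGA6, ITGAV, ITGB1 and ITGB5 lie at least 1.5-fold below sgRNA-NT in every targeted library, ITGA5, ITGB3 and ITGA1 also lie below it, and sgRNA-FOXF1 lies above sgRNA-NT for ITGA3 and ITGA11.

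Because the enhancer guides aim at an AP-1 motif and FOXF1 is a forkhead factor, the start regions of the subunits were searched for the letters of both motifs. The guides edit that motif within the enhancer and were not aimed at AP-1 itself or at these start regions. RefSeq windows of build GRCh38.p14, from 250 bases before to 50 bases after a transcription start, were found for 8 subunits with 13 starts, and ITGA3 and ITGB3 had none. The AP-1 letters TGANTCA, which read alike on both strands, occurred in 7.71% of all 35116 windows, and the forkhead core TAAACA or its reverse complement TGTTTA in 12.3%. Counted by gene, 2558 of 27305 genes held AP-1 letters and 4005 held forkhead letters. Among the 8 subunits, AP-1 letters were present for 1, ITGA5, and forkhead letters for 2, ITGA6 and ITGB1. Counts this small are no result about the subunits. The following stretches run 5′ to 3′ from position -160 to 10 around a start, with the matching letters in capitals. ITGA2 is shown because its levels differed most from the control and it holds neither motif, and the other stretches because they hold a match.
ITGA2, chr5:52989192-52989361, plus strand: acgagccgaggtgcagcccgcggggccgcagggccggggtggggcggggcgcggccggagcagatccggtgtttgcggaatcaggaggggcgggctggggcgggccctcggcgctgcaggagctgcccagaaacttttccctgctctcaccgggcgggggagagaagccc
ITGA5, chr12:54419257-54419426, minus strand: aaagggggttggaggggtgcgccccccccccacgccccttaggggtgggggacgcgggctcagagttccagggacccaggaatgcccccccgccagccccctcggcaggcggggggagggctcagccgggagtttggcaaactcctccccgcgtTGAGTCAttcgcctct
ITGA6, chr2:172427176-172427345, plus strand: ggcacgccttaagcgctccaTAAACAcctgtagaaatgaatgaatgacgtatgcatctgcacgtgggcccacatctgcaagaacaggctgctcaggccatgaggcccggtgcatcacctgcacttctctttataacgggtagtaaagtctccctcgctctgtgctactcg
ITGB1, chr10:32935549-32935718, minus strand: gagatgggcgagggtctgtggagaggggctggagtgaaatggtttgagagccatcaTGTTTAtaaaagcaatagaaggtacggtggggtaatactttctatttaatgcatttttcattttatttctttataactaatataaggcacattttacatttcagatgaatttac
The ITGA5 match lies at -6 to 1, the ITGA6 match at -140 to -135 of 1 of its 2 starts, and the ITGB1 match at -104 to -99 of the start inside the gene, not of the upstream one. These are matches of letters only.

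Of the 9 subunits that passed the filter on low values, 5 were at least 1.5-fold lower than in sgRNA-NT with sgRNA.69, 7 with sgRNA.71 and 5 with sgRNA-FOXF1, and 0 were as much higher with any guide. Over all genes compared, 9.93%, 14.7% and 13.2% were at least 1.5-fold lower in these libraries, and 8.18%, 14% and 11.6% were higher. The same 5 subunits, ITGA2, ITGA6, ITGAV, ITGB1 and ITGB5, were lower in all 3 targeted libraries, against 5.85% of all genes compared. The median log2 ratio of the 9 subunits was -0.89 with sgRNA.69, -1.09 with sgRNA.71 and -1.0 with sgRNA-FOXF1, beside medians over all genes of 0.07, 0.08 and 0.05. The sgRNA.71 and sgRNA-FOXF1 medians are the ratios of ITGAV itself. With a filter at a mean of 5 RPKM, which leaves ITGAV out, the 3 medians were -0.71, -0.99 and -0.64. With all 9 subunits kept and the ratios corrected for transcript length they were -0.52, -0.63 and -0.56, each the ratio of ITGAV. ITGAV passed the filter with a mean of exactly 2 RPKM and only through its level in sgRNA-NT, so that the filter favoured a lower ratio for it, and ITGA1 did not pass. With the filter at 5 RPKM, 4, 6 and 4 of 8 subunits were at least 1.5-fold lower with sgRNA.69, sgRNA.71 and sgRNA-FOXF1. The share of all genes was not counted at this filter, so these counts have no background beside them. At a 2-fold difference 3, 5 and 5 subunits were lower, beside 3.3%, 6.38% and 4.96% of all genes compared. ITGA2, ITGA6 and ITGB1 were 2-fold lower in all 3 targeted libraries, as were 1.71% of all genes compared.

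**Figure D2:**
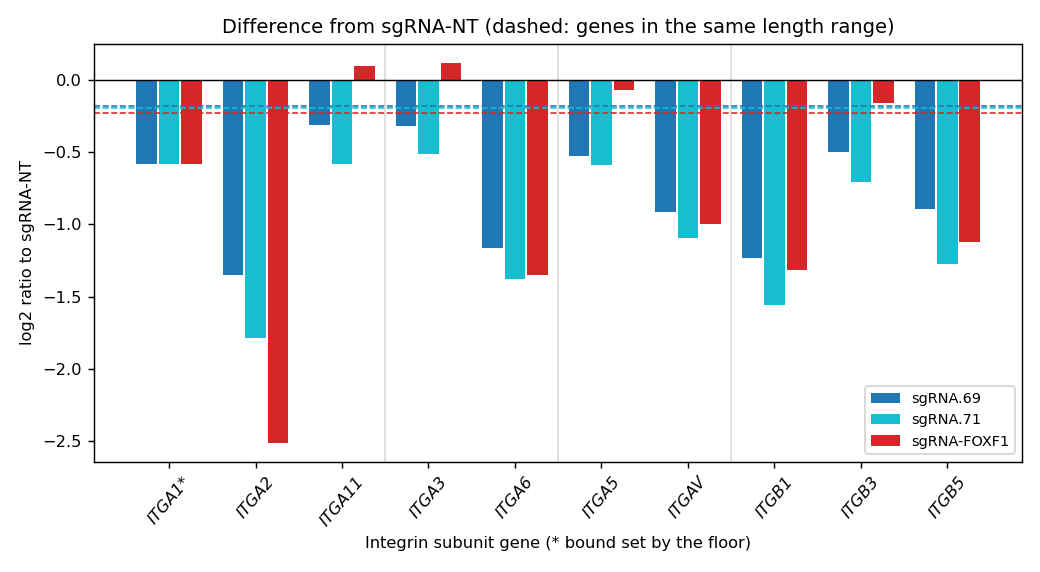
Log2 ratio of RPKM to sgRNA-NT for each integrin subunit, with a bar for each targeted library; dashed lines give the medians of genes in the same range of transcript length (-0.18, -0.19 and -0.23). All bars for the enhancer guides are below 0, sgRNA-FOXF1 bars are above 0 for ITGA3 and ITGA11, and the ITGA1 bars are bounds set by the floor.

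Among the collagen receptor chains ITGA2 differed most. ITGA2, the alpha chain of the collagen receptor alpha2beta1 (chr5:52285170-52390609 of GRCh37, plus strand), had 49.0 RPKM in sgRNA-NT, 19.2 in sgRNA.69, 14.2 in sgRNA.71 and 8.6 in sgRNA-FOXF1. No targeted library came near the control, and sgRNA-FOXF1 was the lowest of all. These levels are 2.55-fold, 3.45-fold and 5.70-fold lower than in sgRNA-NT. In rank among all genes ITGA2 went from 823 in sgRNA-NT to 2007, 2584 and 3689. ITGA11, which binds fibrillar collagens and is typical of mesenchymal cells (chr15:68588870-68724502, minus strand), had 14.5, 11.7, 9.7 and 15.5 RPKM in the same order. Its log2 ratios of -0.31, -0.58 and 0.10 all missed the 1.5-fold limit. ITGA1, the alpha chain of another collagen receptor (chr5:52083750-52255039, plus strand), had 1.5 RPKM in sgRNA-NT and lay at the floor of 1.0 in all 3 targeted libraries. Its levels are too near the floor to be compared.

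The laminin receptor chains differed from each other. ITGA6, which also pairs with ITGB4 in epithelia (chr2:173292082-173371187, plus strand), had 107.9 RPKM in sgRNA-NT, 48.2 in sgRNA.69, 41.5 in sgRNA.71 and 42.4 in sgRNA-FOXF1. The 3 targeted libraries lay close together, 2.24-fold, 2.60-fold and 2.54-fold below the control. ITGA3, a laminin receptor chain that also associates with tetraspanins (chr17:48133332-48167845, plus strand), had 176.9, 141.9, 123.9 and 191.8 RPKM. The enhancer guides were below the control by log2 0.32 and 0.51, short of the 1.5-fold limit, and sgRNA-FOXF1 was above it by 0.12.

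Among the RGD-binding chains, ITGA5 of the fibronectin receptor (chr12:54789045-54813050, minus strand) had 126.0 RPKM in sgRNA-NT, 87.6 in sgRNA.69, 83.8 in sgRNA.71 and 120.2 in sgRNA-FOXF1. It was 1.44-fold and 1.504-fold lower with the enhancer guides, so that 1 guide lay just short of the limit and the other just past it, and 1.05-fold lower with sgRNA-FOXF1. ITGAV (chr2:187454737-187545628, plus strand) had 3.2, 1.7, 1.5 and 1.6 RPKM. Its log2 ratios were -0.91, -1.09 and -1.0, but at these levels the floor of 1 and the rounding to 1 decimal weigh on the ratio. With 1 RPKM added to each value they were -0.64, -0.75 and -0.69.

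The beta chains followed the same division. ITGB1, the shared partner of most alpha chains here (chr10:33176201-33294720, minus strand), had 283.1 RPKM in sgRNA-NT, 120.6 in sgRNA.69, 96.1 in sgRNA.71 and 113.6 in sgRNA-FOXF1. The control lay well above the other libraries, by 2.35-fold, 2.95-fold and 2.49-fold. ITGB5, which pairs with ITGAV alone to bind vitronectin (chr3:124480795-124620265, minus strand), had 90.1, 48.5, 37.2 and 41.4 RPKM, which is 1.86-fold, 2.42-fold and 2.18-fold lower. ITGB3 (chr17:45331193-45391109, plus strand), the other vitronectin receptor chain, had 13.4, 9.5, 8.2 and 12.0 RPKM with log2 ratios of -0.50, -0.71 and -0.16. Only sgRNA.71 took it past the limit. In the annotation 33.18% of the exonic bases of ITGB3 are shared with a readthrough gene on the same strand, so its level is uncertain if the counting split or dropped those reads.

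The make-up of the subunit pool differed with these levels. Summed over the 7 alpha chains the level was 479.0 RPKM in sgRNA-NT, 311.3 in sgRNA.69, 275.6 in sgRNA.71 and 381.1 in sgRNA-FOXF1. Over the 3 beta chains it was 386.6, 178.6, 141.5 and 167.0 RPKM. The ratio of beta to alpha mRNA was 0.807 in the control and 0.574, 0.513 and 0.438 in the targeted libraries, lowest with sgRNA-FOXF1. Transcripts of ITGA3 and ITGA5 hold 60.9% and 58.0% GC, and those of ITGB1, ITGA6 and ITGB5 hold 39.5%, 42.5% and 54.6%. Differences between sgRNA-FOXF1 and the enhancer guides went with GC content, as given below, and its part in this ratio was not tested. ITGA3 made up 36.9% of the alpha sum in sgRNA-NT and 45.6%, 45.0% and 50.3% in the targeted libraries. ITGA2 made up 10.2% in sgRNA-NT and 6.17%, 5.15% and 2.26% with the guides. ITGB1 remained the larger share of the beta sum throughout, at 73.2% in sgRNA-NT and between 67.5% and 68.0% with the guides. These are shares of mRNA, and surface protein was not measured. Sums, ratios and shares over several genes also rest on the length by which each gene was scaled, which is not given.

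All 9 subunits were below sgRNA-NT with both enhancer guides, which share that control library, as were 35.9% of all genes compared. All 9 were lower with sgRNA.71 than with sgRNA.69. The log2 difference of sgRNA.71 from sgRNA.69 ran from -0.06 for ITGA5 to -0.44 for ITGA2, with a median of -0.22. Over all genes compared, 49.4% were lower in sgRNA.71 than in sgRNA.69, the median difference was 0 and its SD was 0.292. None of the subunits differed by 1.5-fold between the guides, as 2.84% of all genes did in this direction.

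The enhancer guides were compared with sgRNA-NT in limma, with both guides as a group of 2 and the lone libraries assumed to vary as these guides do. No gene and no subunit passed an adjusted p of 0.05 (Benjamini-Hochberg over 7596 genes), while 1844 genes and 7 subunits had an unadjusted p under 0.05. ITGA2 had a log2 difference of -1.57 (95% interval -2.53 to -0.61, limma adjusted p = 0.205), ITGB1 of -1.40 (-2.14 to -0.65, adjusted p = 0.205) and ITGA6 of -1.27 (-1.83 to -0.71, adjusted p = 0.205). Only the distance between the guides supplies residual degrees of freedom, 1 in all. In 251 genes the guides have equal values, and without these genes limma called 1423 genes (9.04% of genes as higher and 10.3% as lower) and 6 subunits: ITGA2, ITGA5, ITGA6, ITGB1, ITGB3 and ITGB5, all lower. The call thus depended on how the spread was modelled. Leaving out genes with equal guides selects on the distance between the guides, the only error term of the fit. Calls made without these genes, here and below, are therefore no support for a difference.

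For sgRNA-FOXF1 against sgRNA-NT the same fit called 0 genes and 0 subunits, with 1625 genes and 5 subunits at an unadjusted p under 0.05. ITGA2 had the widest difference, -2.51 on the log2 scale (95% interval -3.62 to -1.40, limma adjusted p = 0.225). Without the genes equal in both guides, 1050 genes were called (6.02% as higher and 8.28% as lower), and with them ITGA2, ITGA6, ITGB1 and ITGB5.

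A direct comparison of sgRNA-FOXF1 with the enhancer guides does not use the control. ITGA3, ITGA5, ITGA11 and ITGB3 were higher with sgRNA-FOXF1 than with both enhancer guides, as were 35.8% of all genes compared, and ITGA2 was lower than with both, as were 41% of all genes. The log2 differences were 0.53 for ITGA3, 0.49 for ITGA5, 0.54 for ITGA11, 0.44 for ITGB3 and -0.94 for ITGA2. In limma 0 genes passed, with 734 genes and 2 subunits (ITGA3 and ITGA5) at an unadjusted p under 0.05, and these 5 subunits had an adjusted p of 0.450. ITGA2 was the 1 subunit called without the genes equal in both guides, where 3.05% of genes were called higher and 1.58% lower. For ITGB1 the difference was 0.08 (95% interval -0.67 to 0.82), for ITGA6 -0.08 (-0.63 to 0.48), for ITGAV 0.00 (-0.59 to 0.60) and for ITGB5 -0.04 (-0.89 to 0.82), intervals that leave room for differences of either sign.

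Transcript length went with the ratios to the control and is given beside the counts for that reason. The 9 subunits have canonical transcripts of 3735 (ITGB1) to 10191 nt (ITGA11). Across 7566 genes with a length, Spearman's rho between length and log2 ratio was -0.50 with sgRNA.69, -0.44 with sgRNA.71 and -0.45 with sgRNA-FOXF1, a description over genes that share the same 4 libraries. Among 2585 genes within the subunits' range of length, 17.9%, 25.4% and 24.9% were at least 1.5-fold lower with the 3 guides and 11.1% were so in all 3. Subtracting a spline fit on length left ITGA2 at -0.90, -1.25 and -2.01, ITGB1 at -1.09, -1.40 and -1.19, ITGA6 at -0.86, -1.02 and -1.001, and ITGB5 at -0.69, -1.04 and -0.90, all still past the 1.5-fold limit. ITGAV stood at -0.52, -0.63 and -0.56, and so missed the limit with sgRNA.69 and sgRNA-FOXF1. On corrected ratios 4, 5 and 4 subunits were at least 1.5-fold lower with sgRNA.69, sgRNA.71 and sgRNA-FOXF1. The shares of genes given above are for uncorrected ratios, and none was counted on corrected ones. ITGA11, the longest, changed sign to 0.27 and 0.13 with the enhancer guides and stood at 0.73 with sgRNA-FOXF1, where ITGA5 at 0.13 and ITGB3 at 0.20 also changed sign.

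GC content went with the difference between sgRNA-FOXF1 and the enhancer guides. Spearman's rho was 0.60 across the same 7566 genes. Between GC content and the log2 ratio to sgRNA-NT it was 0.33 with sgRNA-FOXF1, 0.04 with sgRNA.69 and -0.10 with sgRNA.71. The subunits that were higher with sgRNA-FOXF1 have transcripts of 49.6% (ITGA11), 49.7% (ITGB3), 58.0% (ITGA5) and 60.9% GC (ITGA3), while ITGAV, ITGB1, ITGA2 and ITGA6 have between 38.3% and 42.5%. ITGB5, at 54.6% GC, was not higher. With the GC trend subtracted, a correction chosen after the data were seen, the differences were 0.58 for ITGA11, 0.48 for ITGB3, 0.28 for ITGA5, 0.27 for ITGA3 and -0.73 for ITGA2. They were 0.28 for ITGB1, 0.19 for ITGAV, 0.15 for ITGA6 and -0.18 for ITGB5. ITGA5 and ITGA3 thus no longer lay above ITGB1. Under this correction ITGA3 stood at -0.04 against sgRNA-NT with sgRNA-FOXF1. In the same comparison ITGA2 stood at -2.19, ITGB5 at -1.24, ITGA6 at -1.07, ITGB1 at -0.996 and ITGAV at -0.69. These values are past the 1.5-fold limit, but ITGB1 no longer reached a 2-fold difference.

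Other genes of the adhesion system were taken from lists written with general knowledge. Of 16 further integrin subunits 6 had a row and 3 were compared. ITGA8, a chain of an RGD-binding receptor, had 7.5 RPKM in sgRNA-NT, 3.3 in sgRNA.69, 3.7 in sgRNA.71 and 1.9 in sgRNA-FOXF1, and ITGAE had 3.1, 5.3, 5.3 and 4.5. ITGA4, a fibronectin and VCAM1 receptor chain, had 3.3, 2.8, 2.3 and 3.5 RPKM.

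Of 29 matrix ligands of integrins compared, 21 were at least 1.5-fold lower with sgRNA.69, 21 with sgRNA.71 and 16 with sgRNA-FOXF1, and 1, 2 and 4 were higher. Among all genes compared 9.93%, 14.7% and 13.2% were as much lower, and among those in the subunits' length range 17.9%, 25.4% and 24.9%. As much higher were 8.18%, 14% and 11.6% of all genes compared. The list's median log2 ratios were -1.01, -1.12 and -0.73. FN1, the ligand of ITGA5 with ITGB1, had 151.4 RPKM in sgRNA-NT, 53.9 in sgRNA.69, 33.1 in sgRNA.71 and 71.6 in sgRNA-FOXF1. The basement membrane collagen chain COL4A1 had 59.1, 21.7, 17.2 and 12.0 RPKM, and its partner COL4A2 had 82.3, 32.4, 22.2 and 24.1. HSPG2, the basement membrane proteoglycan perlecan, had 9.8, 2.7, 1.0 (the floor) and 4.5 RPKM. The median transcript of this list is 5701 nt long and that of the subunits is 5816 nt.

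Of 33 adhesion plaque proteins compared, 4 were at least 1.5-fold lower with sgRNA.69, 9 with sgRNA.71 and 5 with sgRNA-FOXF1, and 0, 2 and 1 were higher. These counts are to be read against the same background of 9.93%, 14.7% and 13.2% of all genes lower, or 17.9%, 25.4% and 24.9% in that length range. Of all genes compared 8.18%, 14% and 11.6% were as much higher. Counts near these shares are no result about the list. The list's median log2 ratios were -0.22, -0.32 and -0.16, nearer to 0 than those of the subunits, and the median transcript is 4644 nt long. ZYX, an actin regulator at adhesion sites, had 154.9 RPKM in sgRNA-NT, 86.8 in sgRNA.69, 62.4 in sgRNA.71 and 120.8 in sgRNA-FOXF1. The docking protein BCAR1 had 33.0, 21.2, 15.5 and 22.4 RPKM in the same order. TNS3, a tensin, had 27.5, 16.5, 16.2 and 17.8 RPKM.

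Of 15 membrane partners of integrins, 3, 3 and 4 were lower and 1, 1 and 3 were higher with the 3 guides, beside 9.93%, 14.7% and 13.2% of all genes lower and 8.18%, 14% and 11.6% higher. Counts this small near the background are no result about the list. CD44, the hyaluronan receptor, had 364.0 RPKM in sgRNA-NT, 162.7 in sgRNA.69, 145.6 in sgRNA.71 and 145.1 in sgRNA-FOXF1. SLC3A2, which binds beta chain tails, had 35.6, 27.9, 17.7 and 17.2 RPKM. In the other direction SDC1, a syndecan, had 40.9, 63.9, 53.7 and 134.0 RPKM, highest with sgRNA-FOXF1, and the tetraspanin CD82 had 27.4, 34.0, 57.1 and 48.9.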

How the data were processed

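The deposited table holds RPKM values which the authors made from 1 RNA library per condition, per the study's methods by aligning single reads to hg19 with TopHat2, counting reads per gene with HTSeq-count and applying GENCODE annotations. Tool versions: not given in the sources used here. Per the labels and methods, the authors quantile-normalized the RPKM values across libraries, set a floor of 1 and wrote 1 decimal. Labels and methods name different RNA reagents and library kits, so strandedness is uncertain. The deposited log2 columns, 3 of the authors' own ratios to the control, were not used.

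Samples were grouped by their condition label. Genes whose mean level reached 2 RPKM were compared on log2 ratios without a pseudocount. All 4 libraries entered 1 limma 3.58.1 fit (R 4.3.3) with a mean-variance trend, with Benjamini-Hochberg adjustment, a threshold of 0.05 and 1.4 prior degrees of freedom. On simulated data it recovered 81 of 100 genes changed 2-fold and called 8 of 7396 unchanged genes in the enhancer comparison, with a spread that was alike in all genes, which the real table does not have. Length and GC content were taken from each gene's canonical transcript in a GENCODE annotation lifted to GRCh37, found for 99.6% of the genes compared, and were fitted by cubic splines with 5 inner knots. Other steps ran in Python 3.11.15 (pandas 2.3.3, numpy 2.4.6, scipy 1.17.1, matplotlib 3.10.9).

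The subunits, gene lists and rules were chosen with earlier results of these data known. Named genes are the subunits, FOXF1, HRAS and up to 4 compared genes of each adhesion list, those whose absolute log2 ratios were largest on average, of which 1 is not reported here. Alternatives were a pseudocount, centring, length and GC corrections, other filters on low values, a 2-fold limit, means, each guide alone, and limma without the trend, without genes equal in both guides or with the targeted libraries as 1 group.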

Additional observations from a re-analysis of the deposited data

Results flagged for a closer look

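ITGA11 and ITGA3 were picked out because both enhancer guides lay below sgRNA-NT while sgRNA-FOXF1 lay above it. Of 7596 genes compared, 2728 lay below sgRNA-NT with both enhancer guides, and 2215 of these also with sgRNA-FOXF1. The remaining genes of the 2728 lay at or above sgRNA-NT with sgRNA-FOXF1, so the pattern is not particular to these subunits. The log2 ratio of sgRNA-FOXF1 to the mean of the enhancer guides was 0.54 for ITGA11 (unadjusted p = 0.0758, limma adjusted p = 0.450) and 0.53 for ITGA3 (unadjusted p = 0.0453, limma adjusted p = 0.450), so neither difference passed the adjusted threshold. ITGA3 was 0.27 with the GC trend subtracted and ITGA11 was 0.58. The opposite directions were not kept under every correction, since ITGA3 with sgRNA-FOXF1 stood at -0.04 against sgRNA-NT with the GC trend subtracted, and ITGA11 with the enhancer guides stood at 0.27 and 0.13 with the length trend subtracted.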

How the results depend on the processing

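The median log2 ratio of the subunits stayed below 0 in all 3 targeted libraries under every alternative run. For sgRNA.69, sgRNA.71 and sgRNA-FOXF1 it was -0.52, -0.63 and -0.56 with the length correction, and -0.64, -0.75 and -0.69 with a pseudocount of 1 RPKM. Each of these medians is the ratio of ITGAV, a gene near the floor, and so describes that gene. For sgRNA-FOXF1 the median was also -0.69 with the GC correction, which was added after the data were seen. That value is again the ratio of ITGAV. With every gene the sgRNA-FOXF1 median was -0.79. A filter at a mean of 5 RPKM leaves ITGAV out, and the medians were then -0.71 with sgRNA.69, -0.99 with sgRNA.71 and -0.64 with sgRNA-FOXF1. With each enhancer guide left out in turn, the median of the enhancer ratio ran from -1.09 to -0.89. At a 2-fold limit 3 subunits were lower with sgRNA.69, and with the length correction 1 subunit, ITGA11, was at least 1.5-fold higher with sgRNA-FOXF1. Counts of limma calls rested on the genes fitted. With every gene, limma called 354 genes and 1 subunit (ITGA1, at the floor in both guides) for the enhancer guides, 479 and 1 for sgRNA-FOXF1 against sgRNA-NT, and 239 genes for sgRNA-FOXF1 against the enhancer guides. Without genes equal in both guides it called 1423, 1050 and 340 genes and 6, 4 and 1 subunits, and the prior degrees of freedom became infinite. Without the trend, with a pseudocount, with a higher filter or with the targeted libraries as 1 group it called 0 genes. No paired analysis was possible because each condition has 1 library. Depth is unknown, and values near the floor of 1 RPKM, ITGA1 and ITGAV among them, carry the least precision.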
